A study of Mus musculus with 12 samples.

Results

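The comparison described here asks of every gene whether losing Dkk1 changed its expression differently in the posterior and the anterior epiblast of the mouse embryo. It is a genotype by region interaction: the difference between KO and control arrays in the posterior epiblast, minus the same difference in the anterior epiblast, on log2 normalized intensities. A positive interaction means that the KO minus control difference was the more positive of the pair in the posterior region, and a negative one that it was the more positive in the anterior region. Probes were kept where the detection p-value was under 0.05 on at least 3 of the 12 arrays, which left 21051 of 46237 probes. Of these, 15924 carried 1 gene name and stood for 11124 genes, which is the set of genes compared.

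Dkk1 encodes a secreted protein of the anterior mesendoderm that binds the Wnt co-receptors Lrp5 and Lrp6 and so holds back Wnt/beta-catenin signalling. In the gastrulating mouse embryo, Wnt ligands are made at the posterior end, around the primitive streak, where they sustain streak and mesoderm genes. The anterior end is kept low in Wnt signalling by secreted antagonists, and mouse embryos without Dkk1 form no anterior head. Targets of the pathway such as Sp5 and Axin2 are therefore high posteriorly and low anteriorly in normal embryos.

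The samples were epiblast dissected from embryos at stage E7.75. The 4 groups of 3 arrays were posterior epiblast of Dkk-/- embryos (KO posterior), posterior epiblast of Dkk+/+ embryos (control posterior), anterior epiblast of Dkk-/- embryos (KO anterior) and anterior epiblast of Dkk+/+ embryos (control anterior). The genotype labels write Dkk, and the sample codes name Dkk1. The labels' protocol mentions 4 genotypes and names these 2. No source used here gives the allele, the strain, the sex or the number of embryos per array. It is also not stated which arrays come from the same embryos, so the p-values reflect the spread among these samples alone, and the number of arrays limits the precision. Mean signal per array ran from 189 to 693, with the lowest in KO posterior replicate 2, where 36.2% of probes were detected against up to 42.3% elsewhere. Within groups, the median SD over genes was 0.202 in KO posterior, 0.158 in control posterior, 0.186 in KO anterior and 0.17 in control anterior arrays (log2, n = 3 each).

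Dkk1 itself measured 4.75, 4.31 and 4.46 in KO posterior arrays, 5.05, 5.12 and 4.64 in control posterior arrays, 5.9995, 6.27 and 6.17 in KO anterior arrays and 6.10, 5.78 and 6.06 in control anterior arrays. No KO posterior array detected it, and the KO and control arrays overlapped in the anterior region. Its interaction was -0.60 (SE 0.24, adjusted p = 0.739), or -0.14 with the KO posterior arrays raised to the lowest detected signal. The signal of this probe was thus not lower in the KO anterior arrays, so every direction below rests on the genotype labels. No source used here places the probe with respect to the deletion. Regional identity was clear for the markers measured: Mixl1, a homeobox gene of the streak, averaged 8.88 in KO posterior and 9.11 in control posterior arrays and was detected on none of the 6 anterior arrays. Otx2, a homeobox gene of the head, averaged 6.14, 8.58, 10.23 and 11.33 in KO posterior, control posterior, KO anterior and control anterior arrays. Six3 and brachyury had no detected probe that carried their name, so neither was analysed here.

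One gene out of 11124, Rhbg, passed an adjusted p of 0.05 for the interaction (limma with Benjamini-Hochberg adjustment over all genes), which is 0.00899% of the genes tested. Its interaction was negative, and 0 genes passed with a positive one. At an unadjusted p under 0.05 there were 685 genes (6.16%), of which 286 (2.57%) were positive and 399 (3.59%) negative, where 556 would be expected if no gene differed. The median interaction of all genes was -0.02 and its median SE was 0.25. The 95% confidence interval lay within -1 to 1 for 8656 genes (77.8%), so for most genes a difference between the regions of more than 2-fold fell outside the interval. An interaction beyond 1 in size was estimated for 86 genes (0.773%). By region, the KO minus control contrast called 0 genes posteriorly and 56 anteriorly (0.503%), and the posterior minus anterior contrast called 876 genes in KO epiblast (7.87%) and 554 in control epiblast (4.98%). These counts belong to separate tests and do not themselves show a difference between regions.

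The 25 genes with the smallest interaction p include Rhbg and 24 genes whose adjusted p ran from 0.108 to 0.318. Because they were ranked by this contrast, the following is a description. In 23 of the 25, the KO minus control difference was larger in size in the anterior region, which was so for 53.7% of the 685 genes at an unadjusted p under 0.05 and for 48.4% of all genes. KO and control arrays did not overlap in the anterior region for 25 of the 25 and in the posterior region for 8, beside a background of 14.1% and 15.6% of all genes. The interaction was positive in 9 and negative in 16. Only Scyl2 and Nfkbil1 had the larger difference posteriorly.

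**Figure D1:**
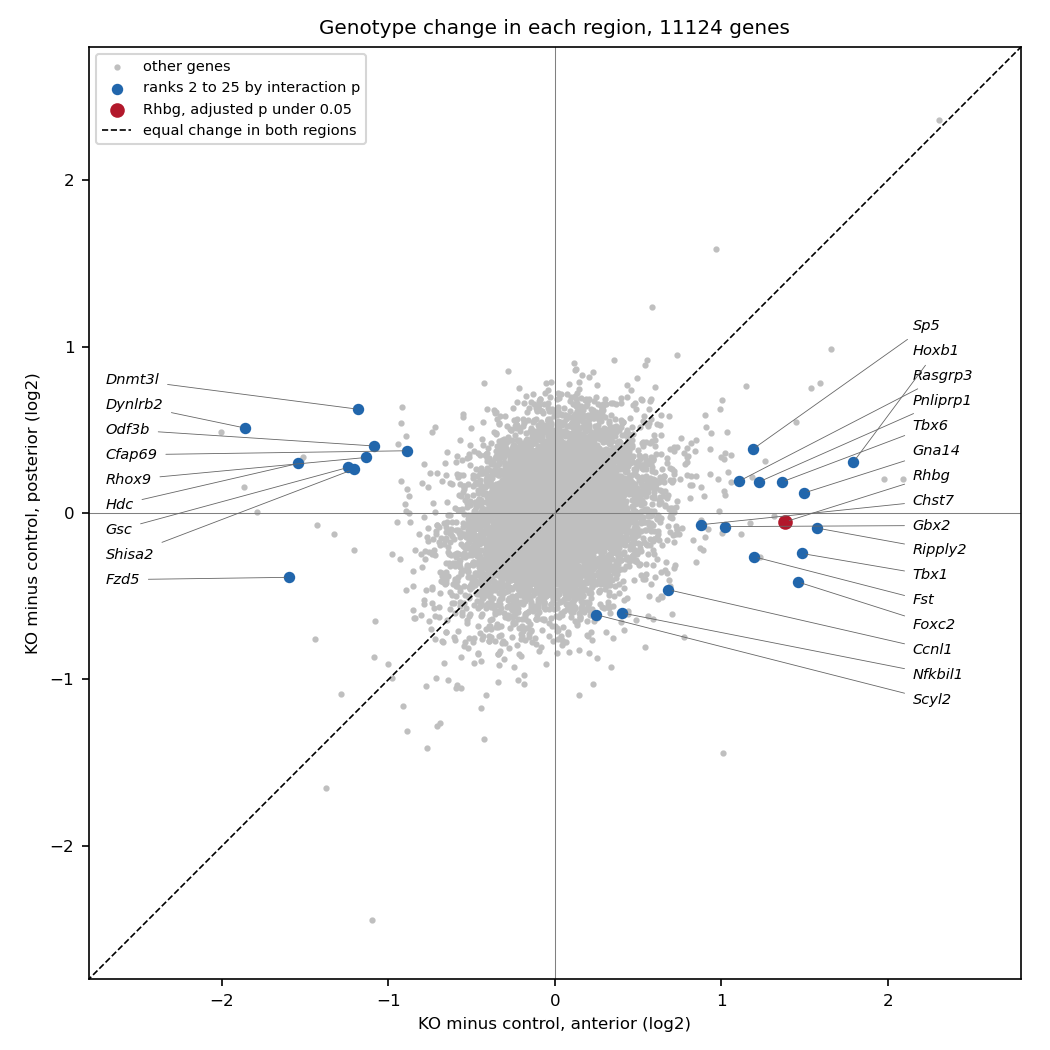
KO minus control difference (log2) in the posterior epiblast (vertical axis) against that in the anterior epiblast (horizontal axis) for 11124 genes. The dashed line marks equal differences; Rhbg (red) and the genes at ranks 2 to 25 (blue) spread along the horizontal axis, with 23 of the 25 having the larger difference anteriorly.

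Rhbg encodes an ammonium transporter of the Rhesus glycoprotein family and lies on chromosome 3. It measured 6.58, 6.44 and 6.58 in KO posterior arrays, 6.58, 6.66 and 6.51 in control posterior arrays, 6.23, 6.07 and 6.09 in KO anterior arrays and 4.67, 4.85 and 4.70 in control anterior arrays. The posterior groups overlapped fully, the KO anterior arrays lay a little under them, and the control anterior arrays were far below all others, with the probe detected on 1 of those 3. The KO minus control difference was -0.05 posteriorly and 1.38 anteriorly, giving an interaction of -1.44 (SE 0.16, adjusted p = 0.0103) with a 95% confidence interval of -1.79 to -1.08. Read the other way, the posterior minus anterior difference was 0.40 in KO and 1.84 in control epiblast. In bulk tissue, fewer cells that express a gene and less RNA per cell cannot be told apart. The call was kept in 20 of 28 other settings of the analysis. It was lost when control posterior replicate 1, control posterior replicate 2 or KO anterior replicate 1 was left out (adjusted p 0.0611, 0.0595 and 0.0626, interaction -1.44, -1.40 and -1.39). It was also lost without background correction, where the interaction was -0.49 (adjusted p = 0.185), with an offset of 50 in place of 16, where it was -0.81 (adjusted p = 0.058), and in the authors' log2 values, where it was -0.52 (adjusted p = 0.163). Fits with the replicate number as block, or the number within genotype, lost it too (adjusted p 0.0668 and 0.231, interaction -1.44 in both).

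**Figure D2:**
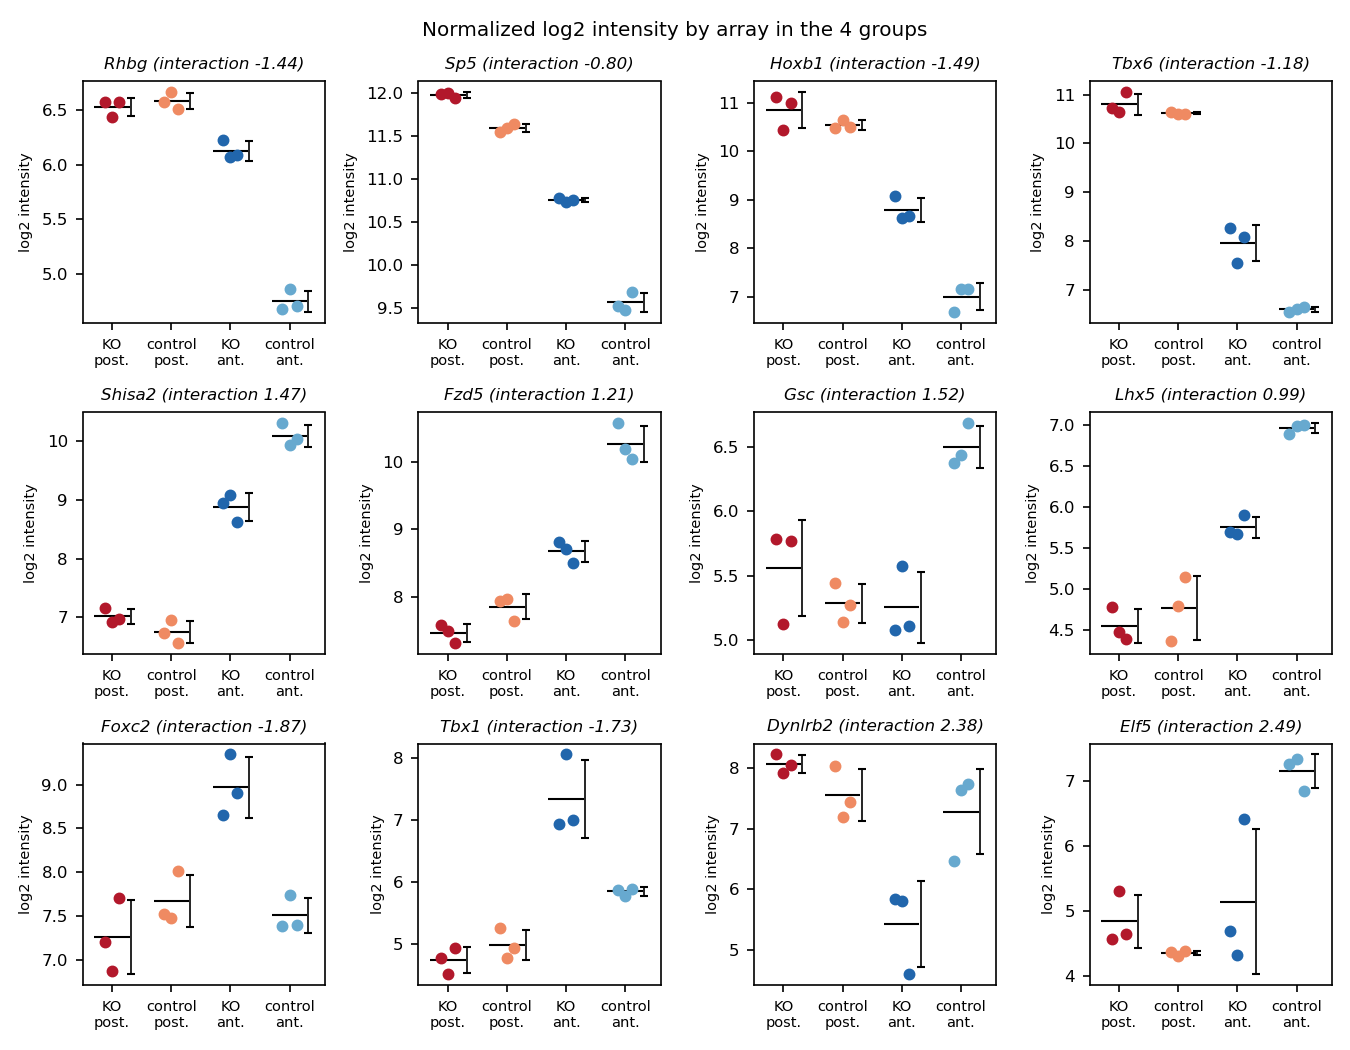
Normalized log2 intensity of 12 genes on each of the 12 arrays; horizontal bars are group means and error bars SD (n = 3). The top panels show genes high posteriorly whose KO anterior arrays lie between control anterior and posterior levels, the middle panels genes high in control anterior arrays, and the bottom panels genes whose KO anterior arrays stand apart from control anterior arrays in either direction.

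A first set of genes was high posteriorly in both genotypes and stood higher in KO than in control anterior arrays, while the posterior groups were alike or nearly so. None of these genes passed the adjusted test of the interaction. Sp5, a zinc finger factor and a direct target of Wnt signalling, measured 11.98, 11.99 and 11.93 in KO posterior arrays, 11.54, 11.59 and 11.63 in control posterior arrays, 10.77, 10.73 and 10.75 in KO anterior arrays and 9.53, 9.48 and 9.69 in control anterior arrays. All 4 groups were separate, with KO above control in each region. The KO minus control difference of Sp5 was 0.38 posteriorly and 1.19 anteriorly, and the interaction was -0.80 (SE 0.16, adjusted p = 0.184).

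The promoter of Sp5 is shown because it is a textbook Wnt target and its 4 groups did not overlap. It holds 1 match to the Tcf/Lef core letters CTTTGAA or CTTTGAT (searched on both strands), set in capitals, which begins 104 bases before the start of the gene. The 250 bases before the start, chr2:70474673-70474922 on the plus strand of GRCm38.p6 from RefSeq, read 5′ to 3′ as follows.
Sp5: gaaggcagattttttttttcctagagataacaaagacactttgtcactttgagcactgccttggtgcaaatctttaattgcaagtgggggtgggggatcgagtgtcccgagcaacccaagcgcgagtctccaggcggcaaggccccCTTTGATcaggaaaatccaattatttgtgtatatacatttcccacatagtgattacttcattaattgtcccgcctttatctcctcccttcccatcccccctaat
Of 20 ranked genes with a promoter in the RefSeq table, 3 (Sp5, Hdc and Odf3b) held such a match in those 250 bases, against 7.48% of 32851 promoters. The ranked genes were counted by gene, with a match in any promoter of the gene, and the 7.48% by single promoter. These shares are therefore not directly comparable. A match of letters is not a binding site.

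Hoxb1, the Hox gene of the posterior epiblast and later hindbrain, measured 11.11, 10.43 and 11.002 in KO posterior arrays, 10.48, 10.66 and 10.50 in control posterior arrays, 9.08, 8.63 and 8.68 in KO anterior arrays and 6.69, 7.15 and 7.17 in control anterior arrays. Its posterior groups overlapped, and its KO anterior arrays were all above the control anterior ones. The interaction was -1.49 (SE 0.28, adjusted p = 0.173), and -1.28 at a second probe of the gene. Tbx6, the T-box gene that specifies paraxial mesoderm, measured 10.73, 10.64 and 11.04 in KO posterior arrays, 10.65, 10.60 and 10.61 in control posterior arrays, 8.26, 7.54 and 8.08 in KO anterior arrays and 6.54, 6.61 and 6.64 in control anterior arrays. Posterior groups overlapped and anterior groups did not. The interaction of Tbx6 was -1.18 (SE 0.24, adjusted p = 0.229), but only -0.19 at a second, dimmer probe.

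Fst, which encodes the activin-binding protein follistatin, measured 10.99, 10.57 and 10.43 in KO posterior arrays, 11.25, 10.83 and 10.69 in control posterior arrays, 8.41, 8.70 and 8.54 in KO anterior arrays and 7.19, 7.57 and 7.30 in control anterior arrays. Again the posterior groups overlapped and the anterior groups were apart, with an interaction of -1.46 (SE 0.26, adjusted p = 0.146). Gna14, a G protein alpha subunit, had an interaction of -1.38, and Gbx2, a homeobox gene of the anterior hindbrain, one of -1.11. Chst7, a carbohydrate sulfotransferase, had an interaction of -0.95, with posterior minus anterior differences of 2.09 in KO and 3.03 in control epiblast. The 4 genes Fst, Gna14, Gbx2 and Chst7 shared a KO minus control difference of 0.88 to 1.495 anteriorly, with posterior groups that overlapped.

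Among Wnt ligands, Wnt8a of the early streak measured 9.79, 10.04 and 9.99 in KO posterior arrays, 9.92, 9.79 and 10.15 in control posterior arrays, 8.15, 8.49 and 7.77 in KO anterior arrays and 6.32, 7.33 and 6.81 in control anterior arrays. The posterior groups were level, and each KO anterior array lay above each control anterior array. Its interaction was -1.33 (SE 0.34, adjusted p = 0.409), with -1.505 and -1.33 at its 2 other probes. Wnt5a, a ligand of non-canonical signalling, and Wnt2 had interactions of -0.78 and -0.90, and a second probe of Wnt5a gave -0.60. Wnt3a, the ligand of the posterior streak, showed another form: its KO minus control difference was -0.30 posteriorly and 0.67 anteriorly, with a very steep posterior minus anterior difference of 5.34 in KO and 6.30 in control epiblast. Its interaction was -0.96 (SE 0.34, adjusted p = 0.737), and the anterior arrays of the 2 genotypes overlapped.

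For the commonly used reporters of the pathway the estimates were smaller. Axin2, a feedback inhibitor, measured 10.48, 10.55 and 10.65 in KO posterior arrays, 10.37, 10.38 and 10.30 in control posterior arrays, 9.19, 9.37 and 9.04 in KO anterior arrays and 8.59, 8.53 and 8.53 in control anterior arrays. KO lay above control in both regions without overlap. The difference was 0.21 posteriorly and 0.65 anteriorly, with an interaction of -0.44 (SE 0.17, adjusted p = 0.739). Lef1, a transcription factor of the pathway, had an interaction of -0.34 with a 95% confidence interval of -0.94 to 0.26, so a difference in either direction remained possible. The caudal gene Cdx2 had one of -0.48, Cdx1 one of -0.66 with an interval of -1.91 to 0.59 and -1.08 at a second probe, and Fgf8, a growth factor of the streak, one of -0.54 with an interval of -1.13 to 0.04.

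Over the list of Wnt/beta-catenin targets, 21 of 27 genes were measured and 0 were called in either direction. Their median interaction was -0.61, beside -0.02 over all genes. At an unadjusted p under 0.05, 12 of the 21 were negative and 0 positive, beside 3.59% and 2.57% of all genes. The same shares of all genes are the background for the counts of every list below. Among the 12, Fgf4 passed the detection filter only through the control posterior arrays, where it was high, so this count is a description. Its interaction of -0.61, which is also the list median, was -0.09 with the other groups at the lowest detected signal. The median KO minus control difference of the list was 0.19 posteriorly and 0.71 anteriorly. Summed linear intensity of the list spanned 37916 to 40046 in KO posterior, 35003 to 37609 in control posterior, 13562 to 14490 in KO anterior and 8664 to 9422 in control anterior arrays, with no overlap between genotypes in either region. The median stayed between -0.75 and -0.34 in 28 other settings of the analysis.

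The list of Wnt ligands and receptors was closer to the background, with a median of -0.13 over 25 genes, 2 positive and 5 negative at an unadjusted p under 0.05. Its positive extreme was Fzd5, described with the anterior genes, and its negative ones included the receptor Fzd10 (-0.66), whose 2 other probes gave 0.07 and 0.34. Secreted and membrane Wnt antagonists had a median of -0.14 over 15 genes, with 1 positive and 2 negative. Frzb, a secreted Frizzled-related antagonist, had an interaction of -1.24 (SE 0.30, adjusted p = 0.369).

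A second set was high in control anterior arrays and lower in KO anterior ones, with low or level posterior signal. Shisa2, of a family that in Xenopus retains Frizzled and FGF receptors inside the cell, measured 7.15, 6.92 and 6.96 in KO posterior arrays, 6.74, 6.95 and 6.57 in control posterior arrays, 8.94, 9.09 and 8.63 in KO anterior arrays and 10.30, 9.95 and 10.04 in control anterior arrays. The anterior groups were separate and the posterior groups overlapped. Its KO minus control difference was 0.26 posteriorly and -1.21 anteriorly, and its interaction of 1.47 (SE 0.22, adjusted p = 0.108) had the second smallest p of all genes. A second, dim probe of Shisa2 gave 0.23. Shisa2 passed the adjusted test in 6 of 28 other settings, among them the authors' log2 values.

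Fzd5, a Wnt receptor of the anterior neural plate, measured 7.58, 7.49 and 7.31 in KO posterior arrays, 7.94, 7.97 and 7.63 in control posterior arrays, 8.81, 8.71 and 8.51 in KO anterior arrays and 10.57, 10.19 and 10.05 in control anterior arrays. KO lay under control in both regions without overlap, and the gap was wider anteriorly. The KO minus control difference was -0.39 posteriorly and -1.60 anteriorly, with an interaction of 1.21 (SE 0.23, adjusted p = 0.173) and 0.71 at a second probe. Gsc, a homeobox gene of the prechordal plate, measured 5.78, 5.13 and 5.77 in KO posterior arrays, 5.44, 5.14 and 5.27 in control posterior arrays, 5.08, 5.57 and 5.11 in KO anterior arrays and 6.38, 6.44 and 6.68 in control anterior arrays. Control anterior arrays stood above the other 9, which overlapped one another. The interaction of Gsc was 1.52 (SE 0.28, adjusted p = 0.146), and it passed the adjusted test with median scaling, with cyclic loess, with array weights and without KO posterior replicate 2.

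Lhx5, a LIM homeobox factor active in the forebrain, measured 4.78, 4.48 and 4.39 in KO posterior arrays, 4.37, 4.80 and 5.14 in control posterior arrays, 5.69, 5.67 and 5.90 in KO anterior arrays and 6.89, 6.99 and 6.99 in control anterior arrays. It was graded over the anterior groups and not detected on the KO posterior arrays. Its interaction was 0.99 (SE 0.26, adjusted p = 0.441), or 1.41 with those arrays at the lowest detected signal. Foxd4, a forkhead gene of the early neural plate, had an interaction of 0.88. Hesx1, a homeobox gene of the forebrain, had one of 0.96, or 1.04 with the posterior arrays at the lowest detected signal. It was detected on 0 posterior arrays, 1 KO anterior array and 3 control anterior arrays, and its anterior groups overlapped. Sox9, a high mobility group factor, had an interaction of 0.85 (SE 0.19, adjusted p = 0.318), and 1.16 at a second probe.

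Over the forebrain and anterior neural plate list, 9 of 20 genes were measured, 0 were called, and the median interaction was 0.32. The list was split, with 5 positive and 4 negative estimates. At an unadjusted p under 0.05, 4 were positive (Fzd5, Lhx5, Hesx1 and Foxd4) and 0 negative, beside 2.57% and 3.59% of all genes. Of the 4, Hesx1 would not have passed the detection filter without the control anterior arrays, where it was high, so this count is a description. The negative estimates were those of Otx2, Otx1, Sfrp1 (-0.19) and Fzd8 (-0.09). Among them Otx2 had the most negative one. It measured 7.38, 4.54 and 6.49 in KO posterior arrays, 8.76, 8.38 and 8.59 in control posterior arrays, 10.44, 10.06 and 10.20 in KO anterior arrays and 11.38, 11.42 and 11.19 in control anterior arrays. KO arrays lay under control arrays in both regions, and KO posterior replicate 2, the array with the lowest mean signal, was lowest by far and did not detect it. The interaction of Otx2 was -1.34 (SE 0.69, adjusted p = 0.856), with a 95% confidence interval of -2.84 to 0.15, and -0.54 without that array. For Otx1 it was -0.57 with an interval of -1.39 to 0.25.

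Several genes lower in KO than in control arrays in both regions showed no detectable difference between the regions, within intervals that leave room for moderate ones. Pou3f1, a POU factor of the anterior epiblast, had KO minus control differences of -0.86 posteriorly and -1.09 anteriorly, and an interaction interval of -0.32 to 0.77. Slc7a3, which imports cationic amino acids, had differences of -1.16 and -0.91 in the same order, with an interval of -0.72 to 0.22 and an interaction of 0.01 at a second dim probe. Sox2, a neural and pluripotency factor, had an interaction of 0.68 with an interval of -0.18 to 1.55, and -0.22 at its second probe. Aldh1a2, which makes retinoic acid, was instead higher in KO arrays of both regions, by 0.98 and 1.66, with an interval of -1.46 to 0.11. Its interaction was -0.68, and -0.67 at a second probe.

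**Figure D3:**
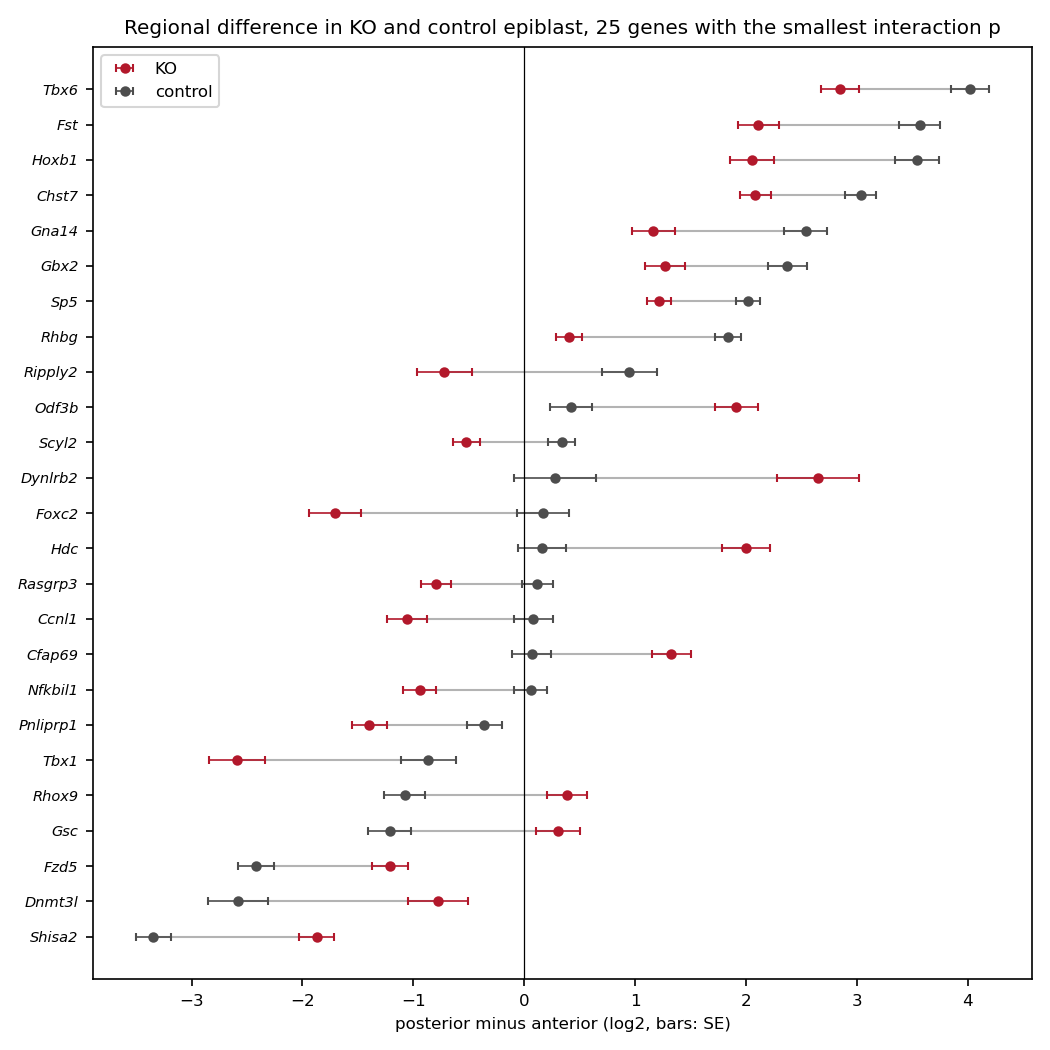
Posterior minus anterior difference (log2) in KO (red) and control (grey) epiblast for the 25 genes with the smallest interaction p, with SE from the fit. Genes such as Tbx6 and Fst have a smaller posterior excess in KO, Shisa2 and Fzd5 a smaller anterior excess, and Dynlrb2, Hdc and Foxc2 a difference in KO where control has one near 0.

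A further set was highest in KO anterior arrays, above the other 3 groups. Foxc2, a forkhead gene of paraxial mesoderm, measured 7.21, 6.87 and 7.71 in KO posterior arrays, 7.53, 7.48 and 8.02 in control posterior arrays, 8.65, 9.34 and 8.91 in KO anterior arrays and 7.39, 7.74 and 7.40 in control anterior arrays. The 3 KO anterior arrays stood above the other 9. The KO minus control difference was -0.41 posteriorly and 1.46 anteriorly, with an interaction of -1.87 (SE 0.33, adjusted p = 0.146). Tbx1, a T-box gene of pharyngeal mesoderm, measured 4.77, 4.51 and 4.92 in KO posterior arrays, 5.25, 4.76 and 4.93 in control posterior arrays, 6.93, 8.05 and 6.99 in KO anterior arrays and 5.87, 5.77 and 5.89 in control anterior arrays. Its KO anterior arrays were again highest, with replicate 2 over the other KO anterior arrays, and no KO posterior array detected it. The interaction was -1.73 (SE 0.35, adjusted p = 0.229), or -1.49 with those arrays at the lowest detected signal.

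Ripply2, a repressor that acts in somite formation, measured 6.16, 5.38 and 6.23 in KO posterior arrays, 5.94, 5.65 and 6.46 in control posterior arrays, 6.75, 6.68 and 6.50 in KO anterior arrays and 4.82, 4.97 and 5.41 in control anterior arrays. Its KO anterior arrays were highest, the posterior groups overlapped each other, and the control anterior arrays were lowest apart from KO posterior replicate 2, which was level with the highest of them. The interaction was -1.67 (SE 0.35, adjusted p = 0.229), and the posterior minus anterior difference was -0.72 in KO and 0.95 in control epiblast. Rasgrp3, an exchange factor for Ras proteins, had an interaction of -0.91 (SE 0.20, adjusted p = 0.229). Pnliprp1, of the pancreatic lipase family, had one of -1.04, or -1.32 with the control posterior arrays, none of which detected it, at the lowest detected signal. Twist1, a helix-loop-helix factor of mesenchyme, and Meis1, a cofactor of Hox proteins, had interactions of -0.97 and -0.98, and a second probe of Meis1 gave -1.53. Ccnl1, a cyclin linked to splicing, had an interaction of -1.14, with KO minus control differences of -0.46 posteriorly and 0.68 anteriorly.

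Notch1, a receptor used in somite segmentation, measured 8.73, 8.40 and 8.07 in KO posterior arrays, 8.47, 8.34 and 8.07 in control posterior arrays, 8.25, 8.24 and 8.17 in KO anterior arrays and 7.33, 7.14 and 7.13 in control anterior arrays. Its control anterior arrays were lowest and the other 3 groups overlapped. The interaction of Notch1 was -0.91, that of its ligand Dll1 -0.69, and that of Tcf15, a helix-loop-helix factor of somites, -1.498. The paraxial and presomitic mesoderm list had the lowest median of the 27 lists, -0.69 over 13 of 20 genes, with 0 called, 2 positive and 7 negative at an unadjusted p under 0.05. Its median KO minus control difference was 0.21 posteriorly and 1.02 anteriorly. Across the other settings its median ran from -0.99 to -0.15. Summed intensity was 5302 to 6263 in KO posterior, 4504 to 4797 in control posterior, 3069 to 3595 in KO anterior and 1658 to 1985 in control anterior arrays.

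The cranial, pharyngeal and cardiac mesoderm list had a median of -0.14 over 19 genes, with 2 positive and 4 negative. Beside Tbx1, its negative members included Mesp1 (-1.14), the factor of nascent mesoderm, and Myl2 (-0.81), a cardiac myosin light chain, while Hand1 (0.78) was positive. The primitive streak list had a median of -0.40 over 21 genes, with 0 called, 2 positive and 7 negative. The 7 include Fgf4, which passed the detection filter only through the control posterior arrays, where it was high, so this count is a description. Nkx1-2, a homeobox gene of the posterior epiblast, had an interaction of -1.01. The 2 positive members were Gsc and Ifitm3 (0.75), a membrane protein of the interferon-induced family.

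Hox genes were split by their estimates. The anterior members Hoxb1 and Hoxa2 had interactions of -1.49 and -0.95, whereas Hoxc9, a posterior member, had 0.67. A second probe of Hoxa2 gave -0.65. Hoxc9 measured 6.86, 6.92 and 6.57 in KO posterior arrays, 5.99, 6.05 and 6.22 in control posterior arrays, 4.63, 4.30 and 4.44 in KO anterior arrays and 4.33, 4.45 and 4.52 in control anterior arrays. It was detected on posterior arrays only, and with the anterior arrays at the lowest detected signal its interaction was 0.66. KO posterior arrays were above control posterior ones. Over 19 of 27 Hox genes, 0 were called, 12 estimates were positive and 7 negative, and the median was 0.25, which turned to -0.19 with cyclic loess normalization.

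In some genes the KO posterior arrays lay below the control posterior arrays. Lefty2, a secreted inhibitor of Nodal, had the most negative estimate of all 11124 genes and measured 9.05, 7.72 and 8.38 in KO posterior arrays, 10.53, 9.49 and 9.45 in control posterior arrays, 7.93, 7.52 and 8.31 in KO anterior arrays and 7.64, 7.06 and 6.03 in control anterior arrays. KO posterior arrays were all below control posterior arrays, and the anterior groups overlapped. The difference was -1.44 posteriorly and 1.01 anteriorly, and the interaction of -2.45 (SE 0.60, adjusted p = 0.372) carried a 95% confidence interval of -3.75 to -1.15. Rarb, a retinoic acid receptor, differed by -0.75 posteriorly and 0.35 anteriorly, with an interaction of -1.10 and -1.08 at a second probe.

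Irx3, an Iroquois gene of the neural plate behind the forebrain, measured 8.88, 8.44 and 8.88 in KO posterior arrays, 9.71, 9.997 and 10.01 in control posterior arrays, 11.32, 10.83 and 10.95 in KO anterior arrays and 11.53, 11.69 and 11.20 in control anterior arrays. KO posterior arrays were below control posterior arrays, and the anterior groups overlapped. The interaction of Irx3 was -0.73 (SE 0.26, adjusted p = 0.737), and for Irx5, another Iroquois gene, it was -1.25 (SE 0.41, adjusted p = 0.67). Without KO posterior replicate 2, the array with the lowest mean signal, the interaction was -0.58 for Irx3 and -0.88 for Irx5. Nfkbil1 had an interaction of -0.9998. Scyl2 had one of -0.86, but neither KO posterior nor control anterior arrays detected it, and with them at the lowest detected signal the value was -0.14.

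The midbrain and hindbrain list, which holds Irx3, Irx5, Meis1, Gbx2 and Hoxb1, had a median of -0.64 over 12 of 18 genes, with 0 called. At an unadjusted p under 0.05, 0 were positive and 5 negative. The 5 do not share one pattern: Hoxb1, Gbx2 and Meis1 were higher in KO than control anterior arrays, while Irx3 and Irx5 were lower in KO than control posterior arrays.

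**Figure D4:**
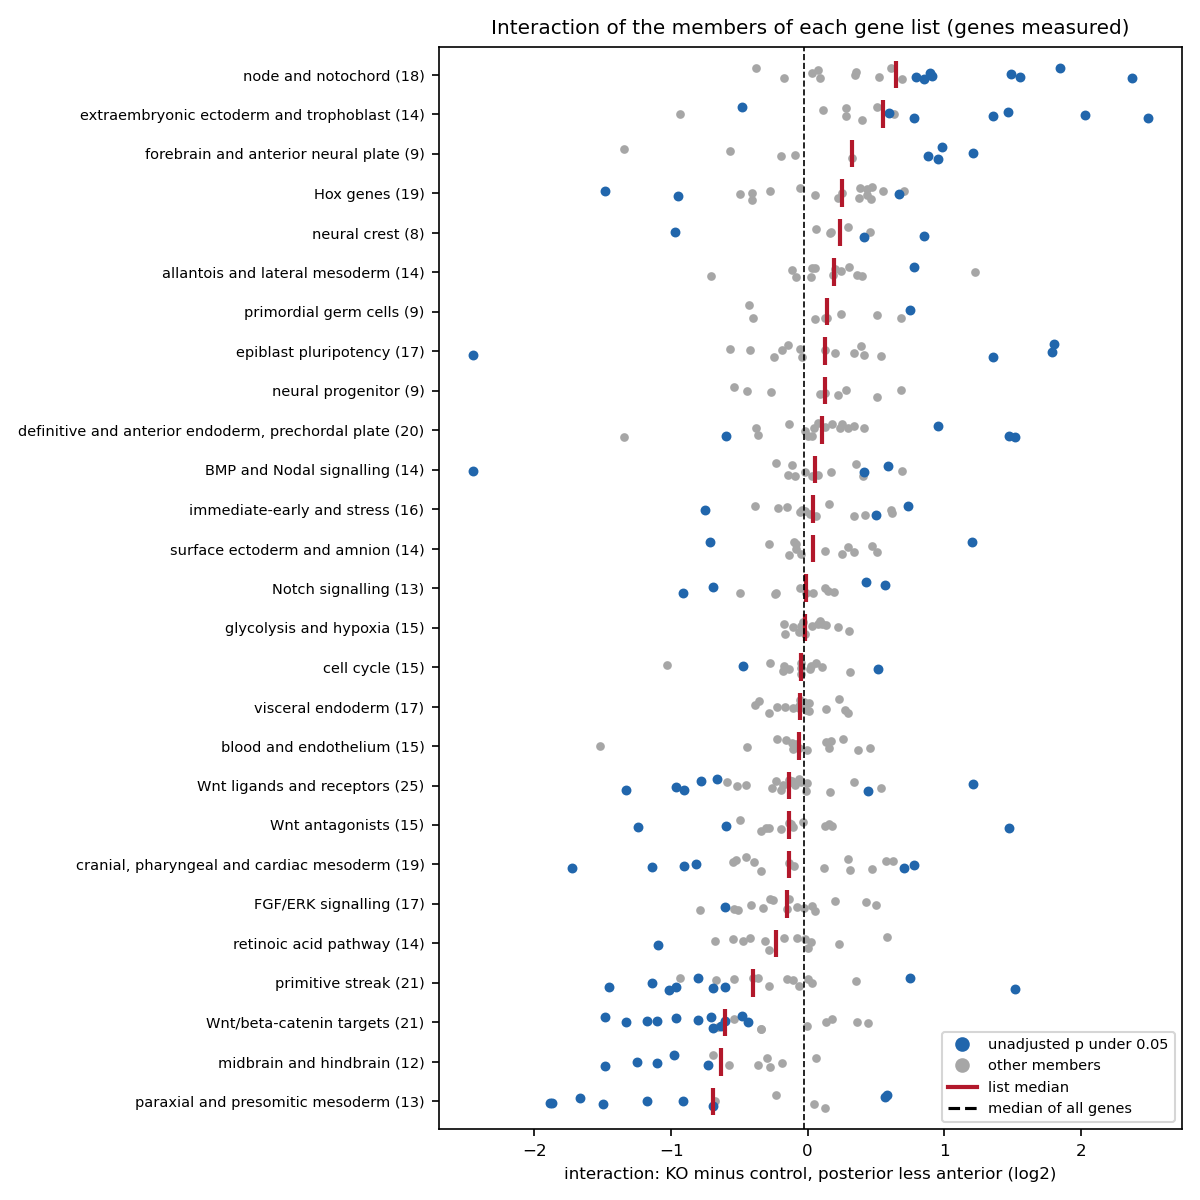
Interaction (log2) of each measured member of 27 gene lists, with the number measured in parentheses; blue points had an unadjusted p under 0.05, red bars are list medians and the dashed line is the median of all genes (-0.02). Medians run from -0.69 for paraxial and presomitic mesoderm to 0.65 for node and notochord, and no member of any list passed the adjusted test.

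The list with the highest median was node and notochord, at 0.65 over 18 of 23 genes, of which 16 had positive estimates and 8 an unadjusted p under 0.05, with 0 negative ones. None was called, and the median ran from 0.26 without background correction to 0.82 over the other settings. The members described next were picked for small p. Not all members shared their form: Foxa2 (-0.38) and Ift88 (-0.17) had negative estimates, and Foxj1 (0.03), Chrd (0.08) and Dnah11 (0.09) were near 0. The node is the organizer at the tip of the streak, and its cells bear motile cilia. Dynlrb2, a dynein light chain of motile cilia, measured 8.23, 7.92 and 8.06 in KO posterior arrays, 8.03, 7.20 and 7.45 in control posterior arrays, 5.84, 5.81 and 4.60 in KO anterior arrays and 6.47, 7.63 and 7.74 in control anterior arrays. KO anterior arrays were lowest, the posterior groups overlapped at high levels, and control anterior replicate 1 lay under its 2 partners. The interaction of Dynlrb2 was 2.38 (SE 0.52, adjusted p = 0.262), and 2.78 without control anterior replicate 1. Read by region, the posterior minus anterior difference was 2.65 in KO and 0.28 in control epiblast.

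Odf3b, of the outer dense fibre family, measured 6.64, 6.87 and 6.65 in KO posterior arrays, 6.70, 6.32 and 5.93 in control posterior arrays, 4.83, 4.87 and 4.71 in KO anterior arrays and 5.57, 6.04 and 6.05 in control anterior arrays. No KO anterior array detected it, and all control anterior arrays did. Its interaction was 1.49 (SE 0.27, adjusted p = 0.146), or 1.39 with KO anterior arrays at the lowest detected signal, and 0.20 at a second dim probe. Cfap69, a cilia protein outside the list, had an interaction of 1.26, or 1.08 with the KO anterior arrays, none of which detected it, at the lowest detected signal, and 0.35 at its second probe. Cfap126 and Pifo, also cilia proteins, had 1.55 and 0.91. Their control anterior replicate 1 lay among or near the KO anterior arrays, and Cfap126 passed the adjusted test only without that array. Noto, the homeobox gene of the node, had 0.79, with 0.23 and 0.00 at its other probes.

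Summed intensity of the node and notochord list was 4490 to 4726 in KO posterior, 3495 to 4577 in control posterior, 3150 to 3907 in KO anterior and 4341 to 4991 in control anterior arrays. The anterior groups did not overlap and the posterior groups did. On KO anterior arrays, 2 of the 18 genes were detected nowhere. Whether the dissected pieces held equal amounts of node was not tested. Hdc, histidine decarboxylase, belongs to none of the lists but had the same form: it measured 7.15, 7.40 and 7.20 in KO posterior arrays, 7.24, 6.73 and 6.89 in control posterior arrays, 5.27, 5.45 and 5.03 in KO anterior arrays and 6.27, 7.004 and 7.11 in control anterior arrays. KO anterior arrays were below all others, and the posterior groups overlapped. Its interaction was 1.84 (SE 0.30, adjusted p = 0.146), with 0.40 at a second dim probe.

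The extraembryonic ectoderm and trophoblast list had the next highest median, 0.55 over 14 of 21 genes, with 0 called. At an unadjusted p under 0.05, 6 were positive and 1 negative, beside 2.57% and 3.59% of all genes. The median ran from 0.25 without background correction to 0.80 over the other settings. Of the 6, Rhox9, Gzmd and Elf5 would not have passed the detection filter without the group where they were high, so this count is a description. Gzmd was detected on the KO posterior arrays alone, with KO minus control differences of 0.70 posteriorly and 0.10 anteriorly. Its interaction of 0.60 was 0.30 with the other groups at the lowest detected signal. Elf5, an ETS factor of trophoblast progenitors, measured 4.56, 5.31 and 4.64 in KO posterior arrays, 4.36, 4.31 and 4.37 in control posterior arrays, 4.69, 4.32 and 6.40 in KO anterior arrays and 7.25, 7.33 and 6.85 in control anterior arrays. All control anterior arrays detected it, against 1 KO posterior array, 0 control posterior arrays and 1 KO anterior array. KO anterior replicate 3 was the highest of those 9. Its interaction was 2.49 (SE 0.57, adjusted p = 0.318), or 2.01 with the control posterior arrays at the lowest detected signal. A second probe gave 0.77. Without KO anterior replicate 3 the interaction at the first probe was 3.13 and passed the adjusted test.

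Wnt7b, a Wnt ligand of extraembryonic ectoderm, measured 4.66, 5.46 and 4.52 in KO posterior arrays, 4.50, 4.74 and 4.92 in control posterior arrays, 4.49, 4.78 and 6.35 in KO anterior arrays and 7.22, 7.48 and 6.53 in control anterior arrays. Esrrb, a nuclear receptor of trophoblast and pluripotent cells, measured 4.80, 4.89 and 4.86 in KO posterior arrays, 4.72, 4.68 and 5.36 in control posterior arrays, 4.86, 5.31 and 6.68 in KO anterior arrays and 7.05, 7.27 and 6.81 in control anterior arrays. Both repeated the form of Elf5, with KO anterior replicate 3 above its partners but under the control anterior arrays. Their interactions were 2.03 and 1.36, the second 1.48 with the KO posterior arrays, none of which detected it, at the lowest detected signal. Rhox9, a homeobox gene, was detected on the 3 control anterior arrays alone, and its interaction of 1.47 (SE 0.26, adjusted p = 0.146) was 0.72 with the other groups at the lowest detected signal.

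Dnmt3l, a cofactor of DNA methyltransferases, measured 6.76, 7.32 and 6.94 in KO posterior arrays, 6.39, 6.31 and 6.45 in control posterior arrays, 7.44, 7.36 and 8.55 in KO anterior arrays and 8.84, 9.26 and 8.80 in control anterior arrays. KO anterior replicate 3 was again the highest of its group, and KO lay above control posteriorly and below it anteriorly. The interaction of Dnmt3l was 1.81 (SE 0.38, adjusted p = 0.229), with 1.87 at a second probe, and it also passed the adjusted test without KO anterior replicate 3. Dppa4, a nuclear factor of pluripotent cells, measured 4.64, 5.23 and 5.07 in KO posterior arrays, 4.88, 5.55 and 4.50 in control posterior arrays, 5.39, 5.64 and 6.72 in KO anterior arrays and 7.49, 8.26 and 7.36 in control anterior arrays. Its anterior groups were apart, its posterior groups overlapped, and its interaction was 1.79.

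The summed intensity of the trophoblast list was 7947 to 8697 in KO posterior, 6900 to 7511 in control posterior, 1931 to 2651 in KO anterior and 2305 to 2717 in control anterior arrays. The list also holds Cdx2, which the posterior epiblast expresses at 12.54 to 12.92, so the sum is not a measure of extraembryonic tissue alone. How much extraembryonic tissue came with each piece was not tested. The epiblast pluripotency list, which holds Esrrb, Dppa4 and Dnmt3l, had a median of 0.12 over 17 genes with 3 positive and 1 negative. Pou5f1, the core pluripotency factor, had an interaction of 0.12, and its 95% confidence interval was -0.46 to 0.71.

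The remaining lists of tissues that a dissection could carry had medians from -0.07 to 0.23, and their counts at an unadjusted p under 0.05 stand beside 2.57% positive and 3.59% negative over all genes. The visceral endoderm list had a median of -0.06 over 17 genes with 0 at an unadjusted p under 0.05 in either direction. Blood and endothelium had -0.07 over 15 genes with 0 in either direction. Allantois and lateral mesoderm had 0.19 over 14 genes with 1 positive, and definitive and anterior endoderm 0.10 over 20 genes with 3 positive and 1 negative, the 3 being Shisa2, Gsc and Hesx1. Here too Hesx1 passed the detection filter only with the control anterior arrays, where it was high, so this count is a description. Surface ectoderm and amnion had 0.04 over 14 genes, with 1 positive, Dlx6 (1.20), and 1 negative, Dlx3 (-0.71), both homeobox genes. Neural crest had 0.23 over 8 genes with 2 positive and 1 negative, and primordial germ cells 0.15 over 9 genes with 1 positive.

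For general cell programmes the list medians were near 0. Cell cycle genes had a median of -0.05 over 15 genes, glycolysis and hypoxia genes -0.02 over 15, and immediate-early and stress genes 0.04 over 16. Glycolysis estimates spanned only -0.18 to 0.31. Neural progenitor genes had a median of 0.12 over 9, FGF/ERK signalling -0.15 over 17, BMP and Nodal signalling 0.05 over 14, Notch signalling -0.01 over 13 and the retinoic acid pathway -0.23 over 14 genes. Among BMP targets, Id1 had an interaction of 0.59 (SE 0.17, adjusted p = 0.55). No member of these lists was called.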

How the data were processed

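Epiblast RNA was extracted with microcolumns and biotin-labelled by standard Illumina procedures, per the labels' protocols, and GenomeStudio is named in the submitters' processing notes. The authors deposited linear probe intensity for 46237 probes, without background subtraction or scaling, and beside it the p-value of detection, per the file headers. The deposited log2 values of the authors (33557 probes, median 6.66 on every array, software not given in the sources used here) served as an alternative.

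The neqc function (offset 16) of limma 3.58.1 (R 4.3.3) corrected the background, quantile normalized the intensities and took log2. Probe names came from the platform annotation, updated through RefSeq GRCm38.p6: 30058 probes had 1 name, of which 25561 were matched through a gene number, 1936 through an accession and 2561 stayed as listed, and 16179 had none. For 3455 genes with several detected probes, the one with the highest mean was used. One model with 4 group means and no covariate was fitted over all 12 arrays with lmFit and eBayes. Adjusted p-values are limma's, with Benjamini-Hochberg adjustment over 11124 genes. Where no array of a group detected a gene, a value with its arrays raised to the lowest detected signal of each array is given. Code was tested on simulated data.

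Genes were named by rule: Dkk1, called genes, the 25 smallest interaction p, up to 6 members of each of 27 lists and a fixed set of patterning genes. Mixl1 and Pou5f1 were named as identity markers. The members and lists were chosen with earlier results of these data known. The replicate numbers were checked for pairing: correlations of deviations between same-numbered arrays of a genotype were -0.11 to 0.22. Of 6, 2 were over 0.1, both in control arrays (0.21 and 0.22), and no block was used in the main fit. With 3 arrays per group, this check cannot settle whether same-numbered arrays share embryos, so fits with a block are given as alternatives. Alternatives varied background, offset, normalization, filter, probe choice, variance model, array weights, blocking and the arrays included.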

Additional observations from a re-analysis of the deposited data

Results flagged for a closer look

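The genotype effect on Rhbg differed between the regions by the test of the difference itself, the interaction in limma, at -1.44 on the log2 scale (adjusted p = 0.0103). The call was not kept in all settings, and either replicate block lost it, as given below. The 3 KO anterior arrays were all above the 3 control anterior arrays, and the posterior arrays of the genotypes overlapped. The low end of this contrast was near background, since 1 of 3 control anterior arrays detected the probe.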

How the results depend on the processing

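The single call of the interaction depended on the settings, and Rhbg was called in 20 of 28 others. The number of genes called, and of list members among them, was 3 and 3 without background correction, 1 and 1 with offset 50, 2 and 1 with median scaling, 4 and 3 with cyclic loess, 4 and 4 in the authors' log2 values, 12 and 9 with a trended robust variance and 10 and 6 with array weights. With either replicate block 0 genes were called (684 and 665 at an unadjusted p under 0.05), and the adjusted p of Rhbg was 0.0668 with the number as block and 0.231 with number within genotype. Leaving out 1 array gave 0 to 4 genes and 0 to 2 list members. The count was 0 without control posterior replicate 1, control posterior replicate 2 or KO anterior replicate 1 (608, 541 and 794 at an unadjusted p under 0.05), 2 without KO posterior replicate 2 or KO posterior replicate 3, 4 without KO anterior replicate 3 and 3 without control anterior replicate 1.

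The cause of these changes was not tested. Over the 75 genes followed, the sign of the estimate was kept in 2095 of 2096 comparisons with other settings, the exception being Aldh1a2 without background correction (0.014). They came from the 153 genes named by rule, many for a small interaction p, and several settings leave the estimate unchanged by design. The count is therefore no measure of how stable signs are in general. Some named genes not followed changed sign, such as Cdx4 (-0.24 to 0.55), Wnt3 (-0.32 to 0.10), Notum (-0.75 to 0.18) and Mcm3 (-0.09 to 0.53). The size of the estimates also varied, since without background correction the interaction of Rhbg was -0.49 and with offset 1 it was -2.29. Values from groups near background are limited by signal over background: a floor for undetected groups and a test of every detected probe, named or not, were both chosen after seeing the data and called 1 gene each. List medians changed sign in at least 1 setting for 11 of 27 lists, the largest of which in size was 0.25 (Hox genes). The medians of Wnt/beta-catenin targets, midbrain and hindbrain, paraxial mesoderm, primitive streak, node and notochord, trophoblast and forebrain kept theirs in all 28.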
